A study of Homo sapiens with 8 samples.

Results

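The AP-1 genes FOS, FOSB, FOSL1, FOSL2, JUN, JUNB, JUND and ATF3 were examined in HCT116 cells with and without Fusobacterium nucleatum. They were taken by symbol from the expression table and from the m6A peak lists, which gave 8 of 19475 genes and 14 of 22001 m6A regions. HCT116 is a human colorectal carcinoma line, and F. nucleatum is a bacterium found in colorectal tumours. Control cells received PBS and FUSO cells received F. nucleatum at a multiplicity of infection of 100 bacteria per cell, both for 2 h, with no other bacterium among the libraries used. The 8 samples were an input and an m6A immunoprecipitation (IP) library from each of 2 biological replicates per treatment. The inputs gave mRNA levels in FPKM (fragments scaled by transcript length and by the total of mapped fragments of the library), and each IP library gave 1 list of m6A peaks. All samples came from 1 cell line at 1 time point.

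AP-1 is a pair of basic leucine zipper (bZIP) proteins, usually a JUN protein with a FOS or an ATF protein, that binds short DNA motifs and controls transcription. Many AP-1 genes are immediate early genes, transcribed soon after a signal without the need for new protein, and their mRNAs are short-lived. m6A is a methyl mark on adenosines of mRNA, placed mostly near stop codons at GGAC and related sequences and read by proteins that alter mRNA decay and translation.

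All 8 genes carried m6A peaks, and each had a region that covered its stop codon. A region here is a set of peaks of the 4 lists that shared at least 1 base on the same strand. The following windows hold the GGAC, with the next base A, C or T, that lay in peaks of all 4 lists nearest to the stop codon of each mRNA. They are shown as candidate sites under the peaks, in 5′ to 3′ order on the mRNA (GRCh37), with the 5-base match in capitals, and the peaks do not resolve which base is methylated.
FOS, chr14:75747852-75747872, plus strand, in the coding sequence: ccagacatGGACCtatctggg
FOSB, chr19:45976423-45976443, plus strand, in the 3′UTR: ctgccatcGGACAggaggatt
FOSL1, chr11:65660267-65660287, minus strand, in the 3′UTR: gctggcctGGACAgtatccca
FOSL2, chr2:28635259-28635279, plus strand, in the coding sequence: agcagcggGGACCaatcatca
JUN, chr1:59247603-59247623, minus strand, in the 3′UTR: tccaagttGGACTgggttgcg
JUNB, chr19:12903607-12903627, plus strand, in the coding sequence: gggtcaagGGACAcgccttct
JUND, chr19:18391165-18391185, minus strand, in the 3′UTR: ggcgccccGGACTtggagagg
ATF3, chr1:212792825-212792845, plus strand, in the coding sequence: gaatgggaGGACTccagaaga
The A of the motif lay 10 nt before the stop codon in JUNB, 44 nt before it in FOSL2 and 60 nt before it in ATF3. It lay 78 nt after the stop codon in JUND, 82 nt in FOSL1, 136 nt in JUN and 165 nt in FOSB. In FOS the nearest such motif was 263 nt before the stop codon, and it was the only one in bases that all 4 lists covered. Of the 14 regions, 11 held at least 1 GGAC, beside 72.8% of all regions. Of the 12 regions found in all 4 lists, only an ATF3 region in exons 2 and 3 held none, where 90.0% of all such regions held GGAC.

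The 4 input libraries were alike in size. With Control 1 set to 1, the relative depth was 1.11 in Control 2, 1.23 in FUSO 1 and 0.908 in FUSO 2, and 14566 to 14816 genes were above 0 FPKM. The peak lists held 17039 to 18365 peaks, of which 14 to 16 were on the AP-1 genes. Of 8 markers of colon epithelium, 6 had a mean of at least 1 FPKM, whereas VIL1 and LGALS4 did not, and the 8 summed to 4799 to 5175 FPKM in Control and 4356 to 4724 FPKM in FUSO. The part of these sums in the AP-1 results was not tested. No leukocyte marker of 4 and no endothelial marker of 3 reached that level, with CD3E and CDH5 at 0. Of 4 fibroblast markers only COL1A1 did, with COL1A2 and DCN at 0 and a summed level of 3.82 to 4.51 FPKM in Control and 5.10 to 5.80 FPKM in FUSO. In bulk RNA, fewer cells of a type and less RNA per cell cannot be told apart.

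The first comparison asked which AP-1 mRNAs differed after contact with F. nucleatum. JUN, ATF3 and JUNB mRNA rose 3.0-fold, 3.43-fold and 1.59-fold, and FOS mRNA had means of 91.8 ± 11.3 and 92.1 ± 13.8 FPKM (SD, n = 2). A call was a Benjamini-Hochberg adjusted p under 0.05 in limma, adjusted over all 11088 genes tested, each with a mean of at least 1 FPKM. All 8 AP-1 genes passed that filter. Of them, 3 were called higher, where 0.667% of all genes were, and 0 were called lower, where 0.135% of all genes were, the lowest log2 fold change being the 0.00 of FOS. At an unadjusted p under 0.05 there were 5 of 8, beside 1496 of 11088. Both FUSO libraries lay above both Control libraries in 6 of 8 genes, beside 26.1% of all genes tested. The median log2 fold change was 0.74 for the 8 genes and 0.01 for all genes tested. These 8 genes were chosen with results of these data known, so their counts are descriptions.

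**Figure D1:**
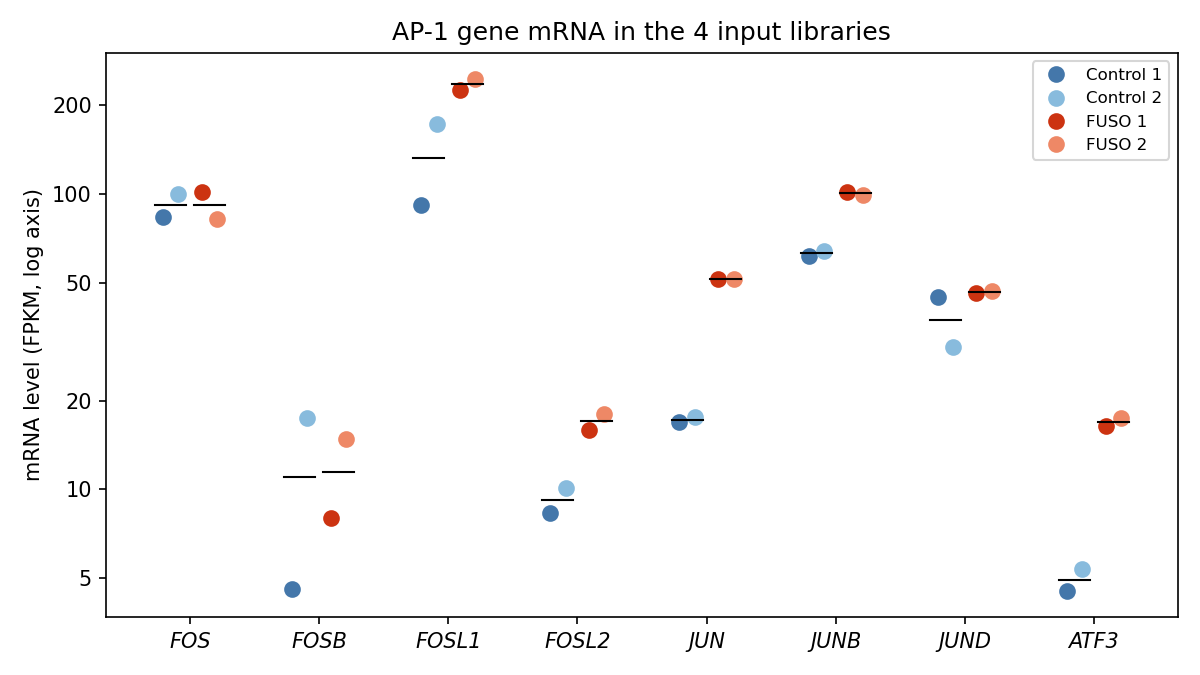
Level of each AP-1 mRNA in FPKM (log axis) in the 4 input libraries, with 1 point per library and a line at the mean of each treatment (n = 2). JUN, JUNB and ATF3 sit at separate levels in Control and FUSO with little spread, whereas the Control points of FOSB run from 4.60 to 17.4 FPKM.

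JUN, the core partner in AP-1 pairs and a target of the JNK kinases, was the most reproducible of the 8. It measured 16.9 and 17.6 FPKM in Control and 51.7 FPKM in each FUSO library. Both FUSO libraries were thus far above both Control libraries, and the FUSO pair was equal to 3 digits. The means were 17.2 ± 0.501 and 51.7 ± 0.0488 FPKM (SD, n = 2). This is a rise of 1.53 on the log2 scale (SE 0.0601, 1.38 to 1.68 as the 95% confidence interval, limma adjusted p 0.000820). The call held under each of the 10 other settings tried, with log2 fold changes of 1.5 to 1.58 and adjusted p of 0.00060 to 0.0409.

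JUNB, a JUN relative that is a weaker activator at many sites, was the most abundant JUN family mRNA in every library. Its level was 61.8 and 64.4 FPKM in Control and 101 and 99.6 FPKM in FUSO. The groups did not overlap, and the difference was many times the gap within either pair. The log2 fold change was 0.66 (SE 0.0548, 0.53 to 0.80, limma adjusted p 0.0114). Without FUSO 1 or FUSO 2 the fit no longer called it, with adjusted p of 0.196 and 0.163 at log2 fold changes of 0.65 and 0.68.

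JUND, the JUN family gene usually expressed without a stimulus, was not called. It measured 44.8 and 30.4 FPKM in Control and 46.1 and 47.1 FPKM in FUSO. The FUSO libraries lay just above Control 1, and it was Control 2 that was low. The log2 fold change was 0.33 (SE 0.173, -0.10 to 0.76, limma adjusted p 0.458). With the residual spread taken from the FUSO pair alone, leaving out Control 1 gave 0.60 (adjusted p 0.0130) and leaving out Control 2 gave 0.06 (adjusted p 0.620), so the value rested on which Control library was used.

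ATF3, a stress-induced bZIP factor that pairs with JUN proteins, had the lowest Control level of the 8 and the largest fold change. It measured 4.52 and 5.38 FPKM in Control and 16.4 and 17.5 FPKM in FUSO. No library of one treatment came near the other treatment. Its log2 fold change was 1.60 (SE 0.0971, 1.35 to 1.84, limma adjusted p 0.00482). As for JUNB, the call was lost without FUSO 1 or FUSO 2, where the adjusted p was 0.0668 and 0.0921 at 1.64 and 1.55.

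FOS, the founding immediate early gene of the group, had nearly equal means in both treatments. The Control libraries held 83.8 and 99.8 FPKM and the FUSO libraries 102 and 82.3 FPKM. The highest and the lowest value both came from FUSO, so the treatments overlapped fully. The log2 fold change was 0.00 (SE 0.128, -0.32 to 0.32, limma adjusted p 0.997). The interval leaves room for a change of that size in either direction at 2 h, and earlier times were not analysed here.

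FOSB, a FOS relative also made as a shortened isoform in many cells, varied more between replicates than between treatments. It measured 4.60 and 17.4 FPKM in Control and 8.0 and 14.8 FPKM in FUSO. Each treatment held 1 low and 1 high library, and the low one was replicate 1 in both. The gap between the Control libraries was 1.72 on the log2 scale, at the 99.9th percentile of all genes tested, whose median gap was 0.10. The log2 fold change was 0.23 (SE 0.576, -1.21 to 1.67, limma adjusted p 0.881), an interval too wide to place a change in either direction.

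FOSL1 encodes FRA-1, a FOS protein known for its high level in invasive carcinoma cells, and it was the most abundant of the 8 mRNAs in every library. It measured 91.8 and 172 FPKM in Control and 224 and 246 FPKM in FUSO. Both FUSO values lay above both Control values, but the Control pair differed by 0.90 on the log2 scale, at the 98.9th percentile of all genes. The log2 fold change was 0.90 (SE 0.278, 0.20 to 1.59, limma adjusted p 0.289), and it was not called. With 1 Control library left out, the residual spread comes from the FUSO pair alone, and FOSL1 was then called at 0.45 without Control 1 (adjusted p 0.0460) and 1.35 without Control 2 (adjusted p 0.00129). Without FUSO 1 or FUSO 2 the adjusted p was 0.776 and 0.717.

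FOSL2, which encodes the related FRA-2, measured 8.30 and 10.1 FPKM in Control and 16.0 and 18.1 FPKM in FUSO. The groups were apart, yet the test just missed the threshold. The log2 fold change was 0.82 (SE 0.114, 0.54 to 1.11, limma p 0.000519, adjusted p 0.0606). Without Control 1 or Control 2, where the FUSO pair alone gives the residual spread, the adjusted p was 0.0408 and 0.0129, and without FUSO 1 or FUSO 2 it was 0.246 and 0.372.

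**Figure D2:**
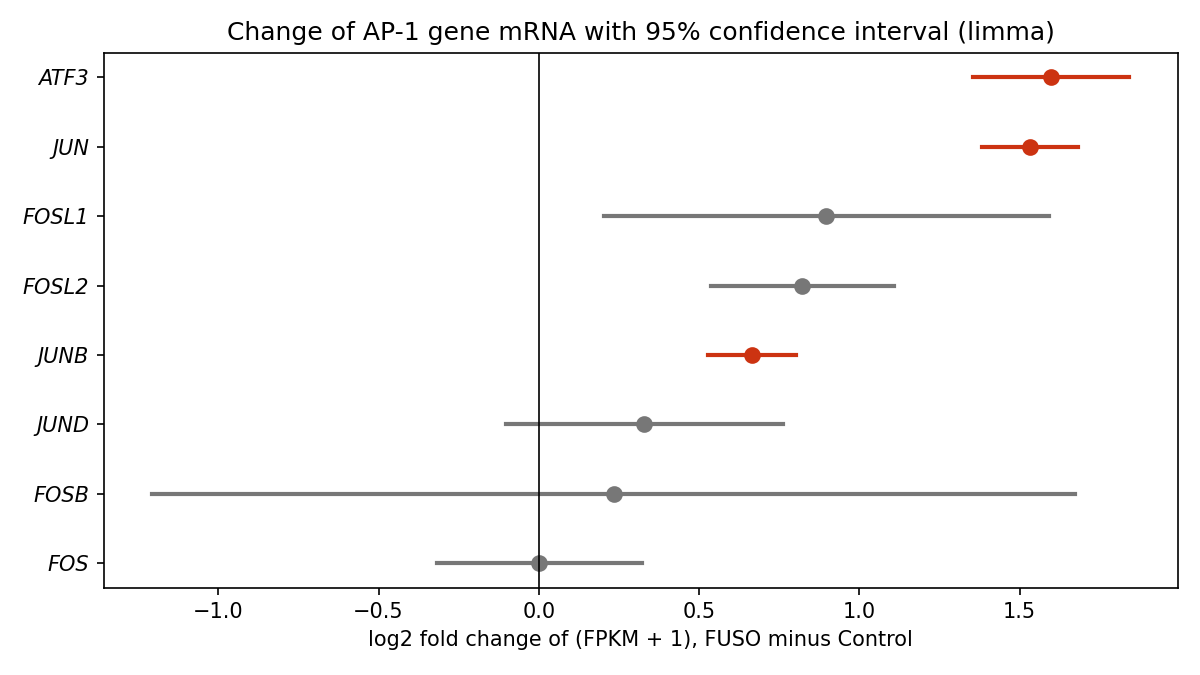
Log2 fold change of (FPKM + 1), FUSO minus Control, for each AP-1 gene with its 95% confidence interval from limma (n = 2 per treatment), red where called. The intervals of ATF3, JUN, FOSL1, FOSL2 and JUNB lie above 0, and those of JUND, FOSB and FOS span it.

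These levels set the makeup of each family. The FOS family mRNAs summed to 189 and 300 FPKM in Control and to 350 and 361 FPKM in FUSO. FOSL1 made up 48.7% and 57.5% of that sum in Control and 64.1% and 68.1% in FUSO, while FOS made up 44.5% and 33.3% and then 29.1% and 22.8%. FOSL1 was thus the leading FOS family mRNA in each of the 4 libraries. The JUN family summed to 123 and 112 FPKM in Control and to 199 and 198 FPKM in FUSO. JUN itself supplied 13.7% and 15.7% of it in Control and 25.9% and 26.1% in FUSO, and the JUND share was 36.3% and 27% and then 23.1% and 23.7%. With 2 libraries against 2, the smallest p of an exact permutation test is 0.333, so that test could not separate the shares, and they are given as values.

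In the order of levels, JUN and JUND changed places. In both Control libraries JUND was above JUN, and in both FUSO libraries JUN was above JUND. FOS and JUNB were neighbours whose order differed between the FUSO libraries, at 102 against 101 FPKM in FUSO 1 and 82.3 against 99.6 FPKM in FUSO 2. At the low end, FOSL2, ATF3 and FOSB lay between 8.0 and 18.1 FPKM in FUSO, and their order also differed between the replicates.

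Promoters are shown for JUN and ATF3, the pair with the largest changes, since both genes are textbook targets of AP-1 and ATF proteins themselves. The windows are the 250 bases before the RefSeq start site (GRCh38.p14, 5′ to 3′ on the gene's strand), with matches to TGACATCA and TTACCTCA in capitals.
JUN, chr1:58784048-58784297, minus strand: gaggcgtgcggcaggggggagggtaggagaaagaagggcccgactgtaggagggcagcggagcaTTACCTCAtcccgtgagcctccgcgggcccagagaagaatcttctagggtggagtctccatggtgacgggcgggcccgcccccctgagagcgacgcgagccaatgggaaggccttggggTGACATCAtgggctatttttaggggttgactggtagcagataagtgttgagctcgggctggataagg
ATF3, chr1:212565157-212565406, plus strand: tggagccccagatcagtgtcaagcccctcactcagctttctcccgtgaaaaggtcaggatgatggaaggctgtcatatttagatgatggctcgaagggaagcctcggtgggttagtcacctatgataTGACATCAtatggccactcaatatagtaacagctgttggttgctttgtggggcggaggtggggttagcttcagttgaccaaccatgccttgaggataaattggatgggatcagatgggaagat
The motifs searched on both strands were TGANTCA, TGACGTCA, TGACATCA and TTACCTCA, none of which holds another. TGACATCA began 67 bases before the JUN start and 123 bases before the ATF3 start of the window shown. TTACCTCA began 186 bases before the JUN start. A second RefSeq window of ATF3 held none of them, and which start site HCT116 cells used was not tested. The canonical ATF3 mRNA used for the peaks begins at chr1:212782103 on GRCh37. Neither RefSeq window was placed against that start, so the match is not shown to lie in the promoter of that mRNA. The JUND window held TGACGTCA 200 bases before its start, and no window of the other genes with an entry, FOS, FOSB, FOSL2 and JUNB, held any. Of all 35116 promoter windows, TGACATCA was in 2.37%, TGACGTCA in 1.65%, TGANTCA in 6.57% and TTACCTCA in 0.644%. TGANTCA was in no window of the members. A match is a description of these letters and not of binding, and whether any motif is more frequent in these windows was not tested.

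The genes around AP-1 were described from 3 lists. For scale, limma called 0.667% of all 11088 genes tested higher and 0.135% lower, and 1496 had an unadjusted p under 0.05. Of 12 other bZIP genes, 11 were tested, 1 was called higher and 0 lower by limma (2 at an unadjusted p under 0.05), with a median log2 fold change of 0.14. The 1 was MAFF, a small MAF protein that lacks an activation domain, at 9.11 and 9.41 FPKM in Control and 18.2 and 21.8 FPKM in FUSO (log2 fold change 1.03, SE 0.0997, limma adjusted p 0.0190). BATF3, which pairs with JUN proteins in immune cells, had the largest negative value, -0.33 (adjusted p 0.288), and BATF2 had 0.21 (adjusted p 0.612). BATF was listed at 0 in every library.

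Kinases and transcription factors that act on AP-1 genes or proteins showed no call with all libraries in the fit. Of 19, 17 were tested, and limma called 0 in either direction, with 2 at an unadjusted p under 0.05. The median log2 fold change was 0.02. The largest values belonged to MAP2K3, a p38 kinase activator (0.37, limma adjusted p 0.283), MAP2K7, a JNK activator (-0.37, adjusted p 0.523), and MAPK9, which encodes JNK2 (-0.37, adjusted p 0.224). MAP2K7 measured 8.31 and 14.5 FPKM in Control and 8.08 and 8.57 FPKM in FUSO, and its value rested on Control 2, at -0.74 without Control 1 (adjusted p 0.0246) and 0.00 without Control 2 (adjusted p 0.993). Kinase activity is not seen in mRNA levels.

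Of 21 genes known as AP-1 targets, 14 were tested, 3 were called higher and 0 lower by limma (7 at an unadjusted p under 0.05), and the median log2 fold change was 0.11. Of those 7, EZR (-0.24) and MMP7 (-0.41) were lower in FUSO and the rest higher. Both FUSO libraries lay above both Control libraries in 6 of the 14, beside 2891 of all 11088 genes tested. They lay below in 4 of the 14, beside 2339 of all. CXCL8, the neutrophil chemokine IL-8, measured 0.396 and 0.335 FPKM in Control and 40.8 and 38.9 FPKM in FUSO (4.90, limma adjusted p 4.84e-05). PLAU, the urokinase protease, measured 27.8 and 25.4 FPKM in Control and 80.7 and 85.9 FPKM in FUSO (1.61, adjusted p 0.00145). Its receptor PLAUR measured 41.1 and 42.9 FPKM in Control and 76.9 and 80.1 FPKM in FUSO (0.89, adjusted p 0.00601). None of the 3 called genes overlapped between treatments. MMP1, MMP3, MMP9, MMP10, MMP13, IL6 and GJA1 lay below a mean of 1 FPKM and were not tested. Without FUSO 1 or FUSO 2, only CXCL8 and PLAU of the 3 lists were still called.

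Genes whose pattern over the 4 libraries was closest to a called AP-1 gene were found by Euclidean distance between log2(FPKM + 1) values, each gene centred on its mean. For JUN these were TOR1AIP2 (distance 0.150), PLAU (0.163) and AK3 (0.172). For JUNB they were KLF6 (0.0383), ITPKC (0.0734) and PMAIP1 (0.0735), and for ATF3 they were AK3 (0.140), TOR1AIP2 (0.157) and NFKBIZ (0.158). TOR1AIP2 and NFKBIZ had Control means of 0.899 and 0.821 FPKM, where the pseudocount of 1 understates changes. In FPKM they rose 4.64-fold and 5.45-fold, beside 3.0-fold for JUN and 3.43-fold for ATF3. PLAU and AK3 rose 3.13-fold and 3.47-fold. The distances were smallest for JUNB, where KLF6 measured 25.5 and 26.0 FPKM in Control and 41.0 and 41.4 FPKM in FUSO. They were not scaled to the size of the change, which among the called AP-1 genes was smallest in JUNB.

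The second comparison asked whether m6A peaks on the AP-1 mRNAs differed between treatments. Of the 14 regions, 12 had a peak in all 4 lists, beside 51.5% of all regions. One region, in JUND, was lost, meaning a peak in both Control lists and in no FUSO list, beside 2.64% of all regions. None was gained, beside 2.38% of all regions. The authors' p-value was the sole value per peak, and a region with no peak had no call, which is not a measured level of 0. The rank of a peak is given below as the percent of its list at or above its strength, so a small percent is a strong peak. A region with several peaks in a list takes the rank of the strongest. The p-value depends on how many reads a gene has, so a smaller one is not a higher share of methylated mRNA.

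**Figure D3:**
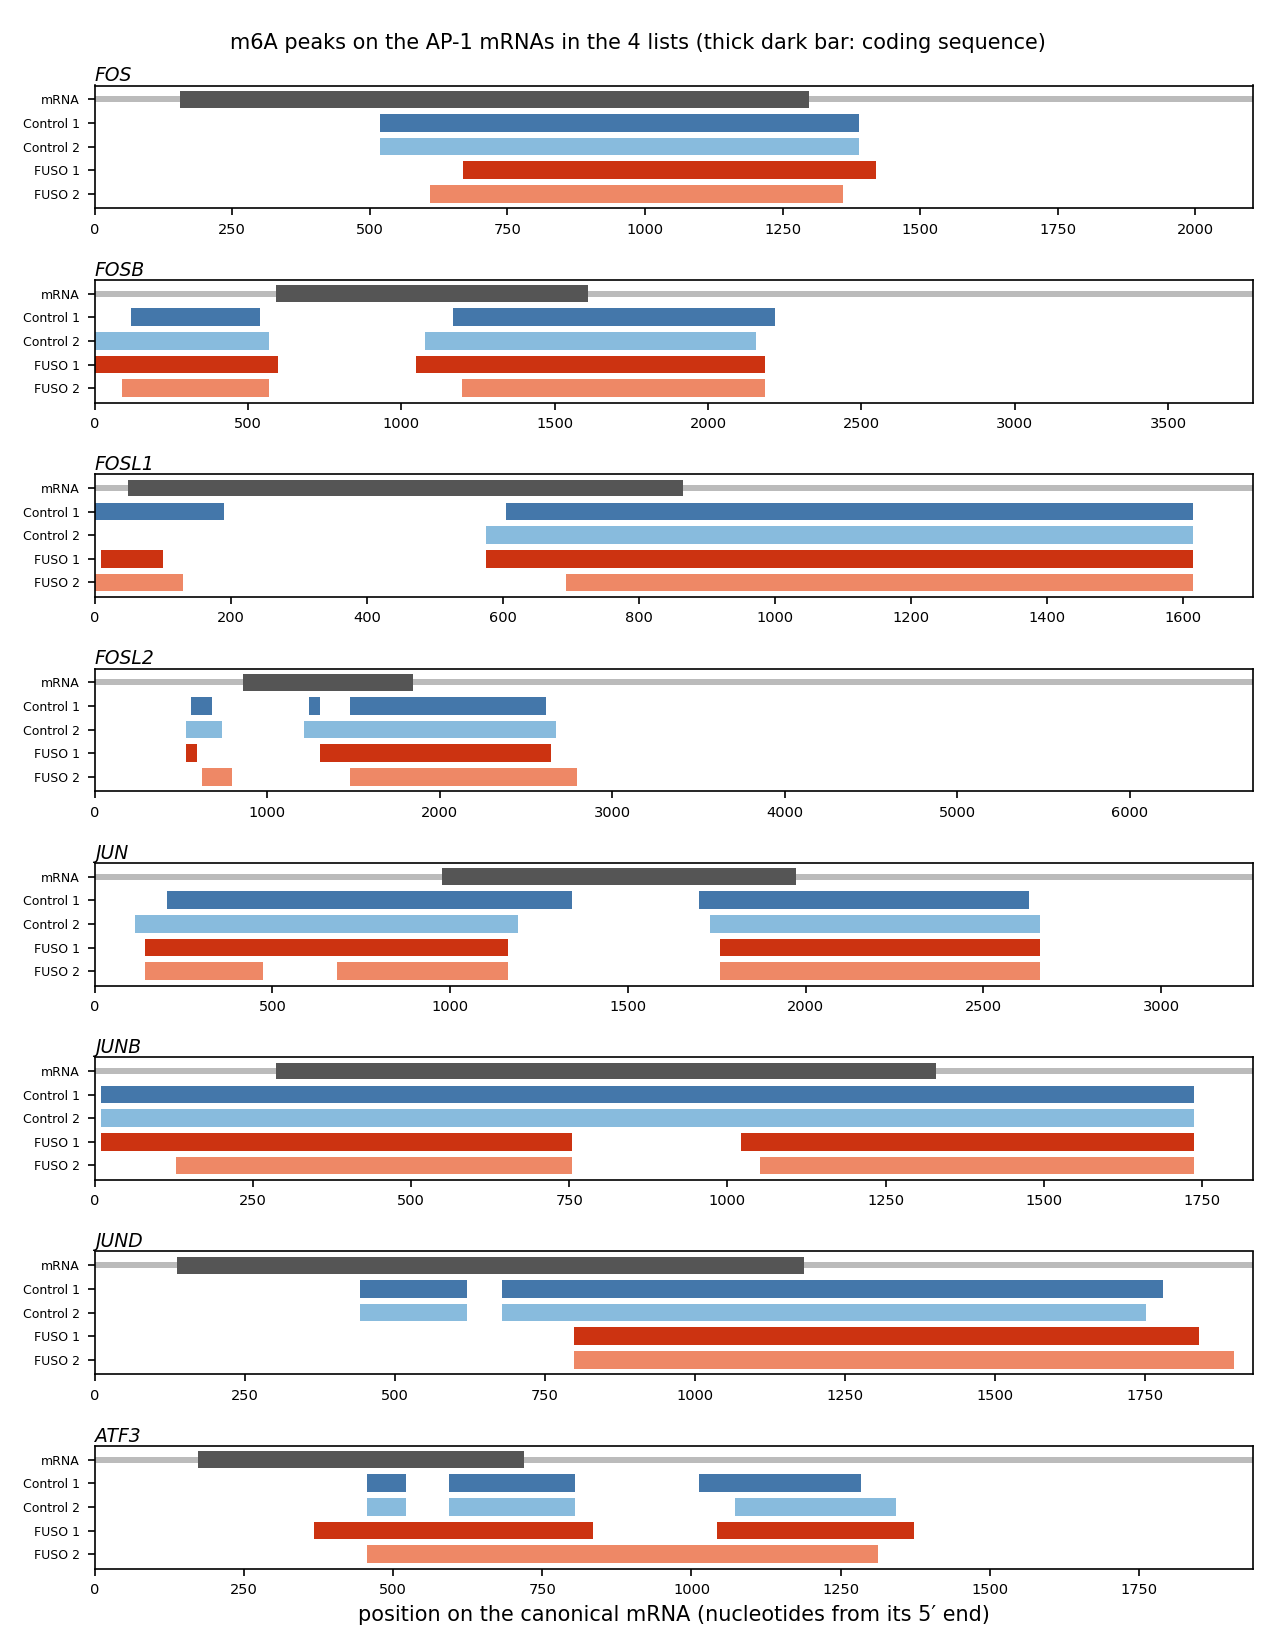
Peaks of the 4 lists (coloured bars) on the canonical mRNA of each AP-1 gene, in nucleotides from its 5′ end, with the coding sequence as a thick dark bar. All lists cover every stop codon, the JUNB peak is divided in both FUSO lists, and the short JUND peak before the main one is absent from them.

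The JUN mRNA (chr1:59246463-59249719, minus strand, a single exon) had 2 regions. The 1 over the stop codon, at 59247062 to 59248019, ranked at 3.52% and 3.89% in the Control lists and at 0.969% and 0.869% in the FUSO lists. Its p-values were 1e-137 and 1e-135 in Control, and 0 as listed and 1e-284 in FUSO. The region over the 5′UTR and the start of the coding sequence, at 59248378 to 59249605, ranked at 32.7% and 27.6% in Control and at 13.7% and 13.2% in FUSO. Both were thus stronger in both FUSO lists, in which JUN mRNA was also higher. In FUSO 2 the 5′ region was split into 2 peaks. The peaks held most GGAC of the mRNA, at 6.79 per kilobase in bases covered by all 4 lists against 0.934 per kilobase in bases of no peak. This order was not general among the 8 mRNAs. The density in the peaks was lower in FOS (1.45 against 4.15), FOSL1 (3.25 against 6.36) and ATF3 (2.05 against 3.21). It was higher in FOSB (9.42 against 3.99), JUND (6.30 against 3.77) and FOSL2, and nearly equal in JUNB (9.91 against 9.71).

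ATF3 mRNA (chr1:212782103-212794117, plus strand, 4 exons) also had 2 regions, both weak in Control. The region over the stop codon in exon 4, at 212792682 to 212793550, ranked at 55.3% and 63.9% in Control and at 22.2% and 19.8% in FUSO. In each Control list and in FUSO 1 it was 2 separate peaks, and in FUSO 2 it was 1 peak of 809 nt. In Control 2 the stronger of the 2 lay in the 3′UTR, and the peak over the stop codon ranked at 72.2%. The other region, at 212788557 to 212792503, lay in the coding sequence of exons 2 and 3, with 155 of its 271 bases on the canonical mRNA. It ranked at 66.3% and 94.1% in Control and at 35.3% and 54.0% in FUSO. Peaks covered 28.2% and 28.1% of the ATF3 mRNA in Control and 41.1% and 44.1% in FUSO, and it was the 1 mRNA of the 8 with more coverage in both FUSO lists. As ATF3 was the gene of lowest Control level, at 4.95 ± 0.604 FPKM (SD, n = 2), the part of its mRNA level in these peak calls was not tested.

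JUNB (chr19:12902300-12904129, plus strand, a single exon) had 1 region over nearly the whole mRNA. Both Control lists held a single peak from 12902310 to 12904036, of 1727 nt and 94.4% of the mRNA. Both FUSO lists held 2 peaks, which covered 79.8% and 71.7% of it. The stretch left between them in both FUSO lists, at 12903055 to 12903321, was 267 nt of coding sequence with a GC content of 74.5% and 1 GGAC. The strongest peak of the region had a p-value of 0 as listed in all 4 lists, where 125 to 178 peaks of a list shared that value. The lists thus cannot show a difference in the strength of that peak. In FUSO it was the 3′ peak. The 5′ peak had authors' p-values of 1e-135 in FUSO 1 and 1e-119 in FUSO 2, at ranks of 3.86% and 3.63%.

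JUND (chr19:18390504-18392432, minus strand, a single exon) held the lost region. It lay in the coding sequence at 18391812 to 18391990, 179 nt long, with a GC content of 67.0% and no GGAC. Its p-values were 4.5e-06 and 4.8e-06, which ranked it at 60.9% and 62.7% in the Control lists, so it was among the weaker peaks. Of the regions within 10% of its length, 60.4% held GGAC. The main JUND region, at 18390534 to 18391753 over the stop codon, ranked at 2.76% and 2.21% in Control and at 2.41% and 2.16% in FUSO. Its 5′ end also differed, since both Control peaks began 119 nt before both FUSO peaks, in coding sequence with a GC content of 79.8%. Toward the 3′ end, 60 nt of the 3′UTR were in peaks of both FUSO lists alone, with a GC content of 43.3%.

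FOS (chr14:75745531-75748933, plus strand, 4 exons) had 1 region, from exon 2 to the 3′UTR in exon 4. The Control peaks were both 870 nt long and the FUSO peaks were both 750 nt long. The peaks of Control began at the same base, 75746803, and those of FUSO at 75747499 and 75747324, so 90 nt of exons 2 and 3 were in Control peaks alone. The region ranked at 6.30% and 4.20% in Control and at 4.77% and 5.91% in FUSO, which overlap, as did the mRNA levels.

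FOSB (chr19:45971254-45978437, plus strand, 4 exons) had a region over its 5′UTR and 1 over the stop codon. The 5′UTR region, at 45971253 to 45971852, ranked at 34.4% and 16.6% in Control and at 13.4% and 20.1% in FUSO. The stop codon region, at 45974462 to 45976879, ranked at 6.95% and 3.61% in Control and at 2.85% and 5.56% in FUSO. Both overlapped between treatments, and in both the weakest rank came from Control 1, the library with the lowest FOSB mRNA. No base of FOSB was in both lists of 1 treatment and neither list of the other.

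FOSL1 (chr11:65659520-65667859, minus strand, 4 exons) had a strong region over the stop codon and a weak 5′ region. The stop codon region, at 65659607 to 65660646, ranked at 2.19% and 1.92% in Control and at 1.04% and 0.880% in FUSO. The 5′ region, at 65664436 to 65667878 across exons 1 and 2, had a peak in Control 1 (p-value 4e-15), FUSO 1 (0.0003) and FUSO 2 (2.3e-08) and none in Control 2. It held no GGAC and was neither lost nor gained.

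FOSL2 (chr2:28615725-28640184, plus strand, 4 exons) had the longest mRNA of the 8, at 6713 nt, and the least covered, with 19.6% and 24.9% in peaks in Control and 20.9% and 22.2% in FUSO. Its stop codon region, at 28627224 to 28636265, ranked at 6.70% and 5.26% in Control and at 1.88% and 1.90% in FUSO. Its 5′UTR region, at 28616255 to 28616523, was weak in all lists, with ranks of 77.3% and 60.7% in Control and 78.2% and 84.5% in FUSO. Its p-values were 0.00026 and 1.9e-06 in Control and 0.00023 and 0.00072 in FUSO, so by p-value the treatments overlapped. The FUSO 1 peak ended at 28616315 and the FUSO 2 peak began at 28616345, so they shared no base and were joined through Control peaks. The stop codon region held 14 of the 39 GGAC of the mRNA. Their density was 10.6 per kilobase in bases that all lists covered and 4.11 per kilobase in the 4865 nt outside all peaks.

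**Figure D4:**
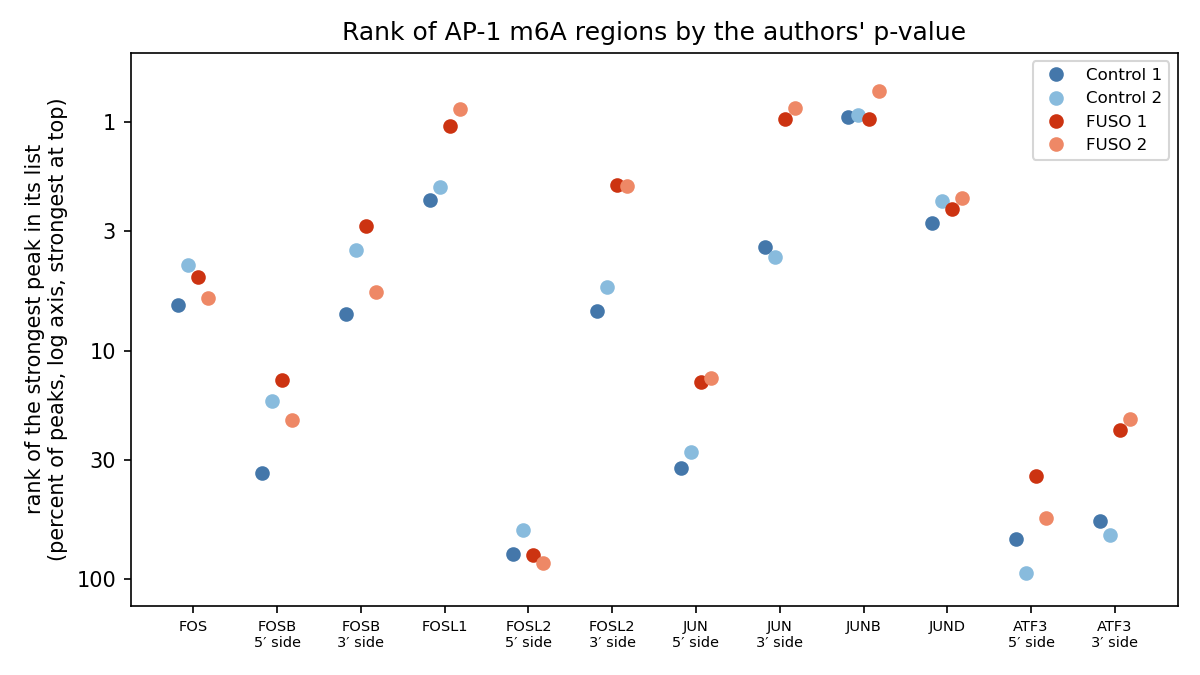
Rank of the strongest peak of each AP-1 region found in all 4 lists, as a percent of the peaks in its list (log axis, strongest at the top), with 1 point per list. The FUSO points of JUN, ATF3, FOSL1 and the 3′ region of FOSL2 lie above their Control points, and those of FOS, FOSB and JUND are mixed. The JUNB points are ties at a p-value of 0 in each list and show no order.

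Over the 12 regions in all 4 lists, 6 ranked stronger in both FUSO lists, beside 19.3% of all 11341 such regions, and 1, the 5′UTR region of FOSL2, ranked stronger in both Control lists, beside 19.0% of all. By p-value that 1 overlapped between treatments. The 6 lay on JUN, ATF3, FOSL1 and FOSL2, genes whose mRNA was above Control in both FUSO libraries. JUND mRNA was also above Control in both, and the ranks of its region overlapped. JUNB could not be ordered, with a p-value of 0 for its strongest peak in all 4 lists. The part of the mRNA level in these ranks was not tested. Of the 8 mRNAs, 4 had fewer peak bases in both FUSO lists, beside 19.5% of the 8493 genes with a peak in all 4 lists, and these were FOS, JUN, JUNB and JUND. With ATF3, 1 had more in both, beside 15.2% of all. In JUN the covered share was 63.5% and 61.6% in Control and 58.9% and 52.5% in FUSO, although both its regions ranked stronger in FUSO.

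Counted by base, a measure chosen after the values were seen, 804 of the 12064 peak bases on the 8 genes (6.66%) were in peaks of both Control lists and no FUSO list, beside 3.47% of the peak bases of all regions. The reverse held for 162 bases (1.34%), beside 2.48% of all. JUND with 298 bases and JUNB with 267 bases made up most of the former. Over all regions, the GC content was 60.4% in bases of both Control lists alone, 46.2% in bases of both FUSO lists alone and 50.6% in bases of all 4 lists. Within the AP-1 genes the order was not the same throughout. Bases of both Control lists alone had a higher GC content than bases of all 4 lists in JUNB (74.5% against 65.2%) and JUND (72.1% against 65.6%) but a lower one in FOS (48.9% against 60.4%). In ATF3, bases of both FUSO lists alone had 51.0% against 47.4%. The part of GC content in these differences was not tested.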

How the data were processed

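m6A-seq of HCT116 cells was analysed from 1 expression table and 4 peak lists on GRCh37 (hg19). The authors trimmed reads with Trim Galore 0.3.3, aligned them with HISAT2 2.1.0 and computed the deposited FPKM with StringTie from the input libraries. The deposited peak lists gave exon blocks and 1 score per peak, read here as the authors' p-value. MACS2 and Fisher's exact test are the tools its methods section gives. No counts were given, so absolute depth and the IP depth were unknown. Relative input depth came from genes at or below 0.05 FPKM. Whether counting used strand is not given in the sources used here, and FOSB, JUNB, FOSL2 and ATF3 overlap genes on the opposite strand, so reads of such pairs may be mixed. FOSL2 also overlaps a same-strand lncRNA.

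Genes averaging 1 FPKM or more over the inputs (11088) entered a limma 3.58.1 fit (R 4.3.3, eBayes with trend, treatment alone) of log2(FPKM + 1). The pseudocount of 1 understates changes of low genes. Folds of means are of FPKM themselves. Named genes were all members, called genes of 3 lists (or up to 3 per list by absolute log2 fold change) and the 3 genes closest to each called member. One gene of the target list is not reported here and was left out of that list's counts, while the fit kept all genes. Members and lists were chosen with earlier results of these data known. Peaks on the same strand that shared at least 1 bp in exon blocks were merged into regions in Python 3.11.15. Annotation was GENCODE release 44 lifted to GRCh37, with canonical transcripts. Promoter sequences were from RefSeq (GRCh38.p14), which matched 7 of the 8 members. Scripts were tested on simulated data. The alternatives were a pseudocount of 0.1, no filter, quantile normalization, a GC correction, no trend, a replicate block, leaving out each library, 50% reciprocal overlap and peaks at a p-value of at most 1e-05. The study describes the 2 libraries per group as biological replicates.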

Additional observations from a re-analysis of the deposited data

How the results depend on the processing

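Across the 10 alternatives, 65 log2 fold changes of members kept direction and side of the threshold, 6 became calls, 4 lost theirs and 5 changed sign. FOS turned to -0.0051 with the GC correction. Leaving out a library gave -0.15 to 0.15 for FOS and -0.63 to 1.09 for FOSB. The number of members called higher ranged from 1 to 6 when 1 library was left out. JUN was called in each of these fits, and in the FUSO leave-outs it was the only member called. Pathway genes called went from 4 to 3 with no filter, which tests 15695 genes and loses MAFF, and ranged from 2 to 6 when a library was left out. Over all genes, 89 were called, 40 with no filter and 16 to 284 with a library left out. With no filter the adjusted p of FOSL2 was 0.171. Where 1 library is left out, the lone library of its treatment is assumed to vary like the other pair. The fit with no filter has more genes and each leave-out has fewer libraries, and the cause of these shifts was not tested. With 50% reciprocal overlap, 2 member regions were lost and 2 gained, as the divided JUNB peaks then count apart. At p-values of at most 1e-05, 1 was gained, in ATF3. Leaving out a library gave 0 to 1 gained regions, the 1 in FOSL1 without Control 1, and 1 lost region each time, in JUND.

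With a replicate block, 4 members were called, the added one being FOSL2 (adjusted p 0.0143), and 90 genes in all. Deviations of same-numbered libraries correlated at 0.0243 over 11088 genes, so over all genes the numbers did not show a pairing. For FOSB, low in replicate 1 of both treatments, the block lowered the SE from 0.576 to 0.201, and it was not called. The test limits are 2 libraries per treatment, unknown absolute depth, and peaks without a level where none was called.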
